A study of Mus musculus with 8 samples.

Results

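Voltage-gated potassium (Kv) channel subunits were described here in whole mouse brain by bulk RNA-seq. The 36 genes were found by symbol among the 24343 genes of the deposited transcript table, and comprised 8 Kv1 (Kcna), 1 Kv2 (Kcnb2), 3 Kv3 (Kcnc), 3 Kv4 (Kcnd), 3 Kv7 (Kcnq) and 8 Kv10 to Kv12 (Kcnh) genes together with 10 genes of modifier subunits (Kv5, Kv6, Kv8 and Kv9). Other genes of these subfamilies were not analysed here, and sums over a subfamily cover the named members only. The libraries came from 3 C57BL/6NCrl mice 56 to 62 days of age, kept under 1 housing condition without treatment. There were 3 libraries each from mice 1 and 2 and 2 libraries from mouse 3, the numbers of which are not explained in the labels, and the sex of the mice is not given. No condition was compared, and the design allowed 2 questions: how abundant each subunit mRNA was in whole brain, and how far the 3 brains differed.

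Kv channels open on depolarization and let potassium leave the cell, which ends the action potential and sets how soon the next one can follow. Pore-forming subunits assemble as tetramers, mostly within a subfamily, and the subfamilies differ in the voltage at which they open, in how quickly they inactivate and in where they sit on the neuron. Modifier subunits of Kv5, Kv6, Kv8 and Kv9 do not form working channels alone and join Kv2 subunits to alter their gating. Cytoplasmic and membrane proteins, such as Kv beta subunits and KChIPs, bind these tetramers and tune their inactivation and trafficking.

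Levels are given in FPKM, fragments per kilobase of transcript scaled to the fragments of the library as the authors estimated them, summed over the transcripts of a gene. FPKM is scaled for transcript length, so that levels of different genes can be set side by side. A dependence on length that differed between libraries remained, as given below, so the order of genes of unlike length is approximate. Libraries were averaged within a mouse before the 3 mice were averaged, and the SD is that between mice (n = 3). Each library held 1.31 to 2.02 gigabases on transcripts. The libraries of mouse 3 stood apart: their summed FPKM was 384885 and 409889, against 295541 to 345572 in the 6 other libraries, and transcript length correlated negatively with the deviation of a gene from its mean (Spearman's rho −0.36 and −0.57) where it correlated positively in the others (0.18 to 0.50). Results that rest on mouse 3 are therefore given in several forms. Marker genes of neurons, oligodendrocytes, astrocytes, microglia, endothelium and choroid plexus, and of telencephalon, striatum, cerebellum and hindbrain, were all above 0 in all 8 libraries.

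The 36 members together amounted to 309 ± 41.7 FPKM (SD, n = 3), or 0.0907% of all FPKM. Their levels spanned a wide range. Of the 36 genes, 12 had a mean of at least 10 FPKM, 17 lay between 1 and 10 FPKM, and 7 lay under 1 FPKM. The 5 most abundant, Kcnc1, Kcnd2, Kcna2, Kcna1 and Kcnf1, held 45.0% of the summed FPKM, and the top 10 held 68.5%. The median member was at 4.55 FPKM, below the 8.81 FPKM of the median gene among the 13001 genes that averaged 1 FPKM or more. Kcnc1, the highest member at 37.9 ± 5.85 FPKM (SD, n = 3), ranked 1748th of all genes. Relative to the mean, the SD between mice had a median of 15.4% over the 29 members of at least 1 FPKM, beside 12.3% for all such genes. Ordered by mean, 7 of the 35 pairs of neighbours had ranges over the 3 mice that did not overlap: Kcna1 over Kcnf1, Kcnq5 over Kcns2, Kcns2 over Kcna4, Kcna5 over Kcng2, Kcng2 over Kcnh6, Kcnh6 over Kcnh8 and Kcnq1 over Kcnv2. The ranges of the remaining 28 pairs overlapped. These ranges take no account of the fact that both genes of a pair were measured in the same libraries. Kcnc1 over Kcnd2, Kcnc4 over Kcna6, Kcna6 over Kcnc2 and Kcnh7 over Kcnh5 overlapped in range but held in 8 of 8 libraries. Kcns2 over Kcna4, Kcna5 over Kcng2 and Kcnh6 over Kcnh8 had separate ranges but held in 6 of 8 libraries.

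**Figure D1:**
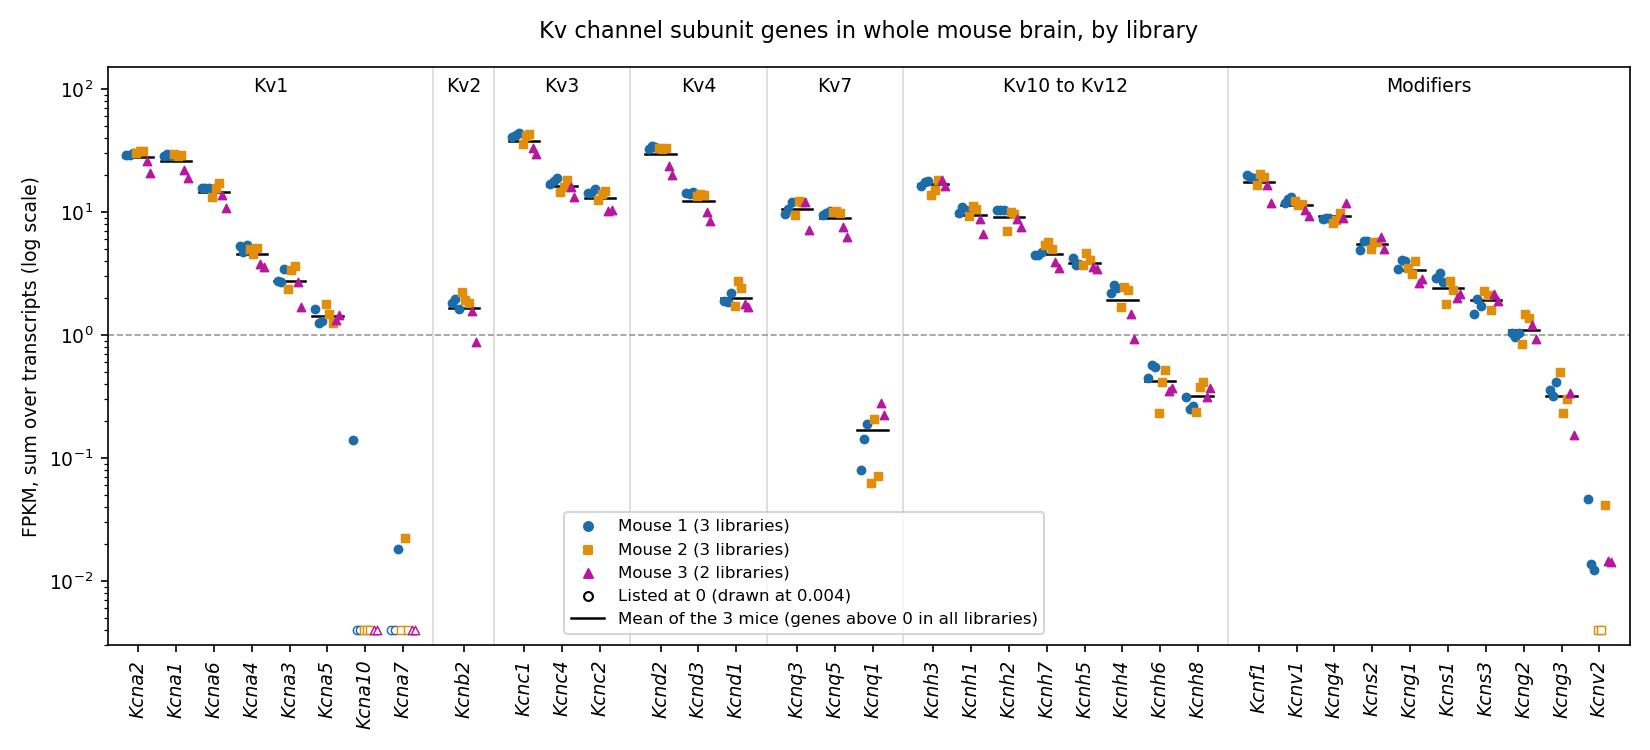
FPKM of the 36 Kv subunit genes on a log scale, with 1 point per library (circles, mouse 1; squares, mouse 2; triangles, mouse 3), grouped by class and ordered by mean within each; open symbols at the bottom mark libraries in which a gene is listed at 0, and the dashed line marks 1 FPKM. Kcnc1 is highest at 29.4 to 44.0 FPKM, 7 genes lie under the line, and the triangles of most genes above it sit at or below the other symbols.

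By class, Kv1 and Kv3 were the most abundant. Kv1 summed to 77.4 ± 11.9 FPKM, 25.0 ± 0.756% of the members' total (SD, n = 3), and Kv3 to 67.0 ± 9.71 FPKM, 21.7 ± 0.477%. The modifiers followed with 53.0 ± 4.28 FPKM and 17.3 ± 1.09%, then Kv10 to Kv12 with 46.4 ± 3.81 FPKM and 15.1 ± 0.966%, and Kv4 with 43.9 ± 9.54 FPKM and 14.1 ± 1.31%. The 3 Kv7 genes gave 19.7 ± 2.47 FPKM and 6.35 ± 0.183%, and Kcnb2, the single Kv2 gene here, 1.67 ± 0.409 FPKM and 0.535 ± 0.0772%. In each of the 8 libraries Kv1 exceeded Kv3, Kv3 exceeded the modifiers and these exceeded Kv10 to Kv12, whereas Kv10 to Kv12 exceeded Kv4 in 5 of 8 libraries. Over the mice, the ranges of neighbouring classes were separate between Kv4 and Kv7 and between Kv7 and Kv2, and overlapped elsewhere. With 3 mice, an exact permutation test between classes cannot reach p < 0.05, so none was made. Per gene the order was different: Kv3 averaged 22.3 FPKM per member, Kv4 14.6 FPKM and Kv1 9.67 FPKM, with Kv7 at 6.55 FPKM, Kv10 to Kv12 at 5.81 FPKM and the modifiers at 5.30 FPKM.

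**Figure D2:**
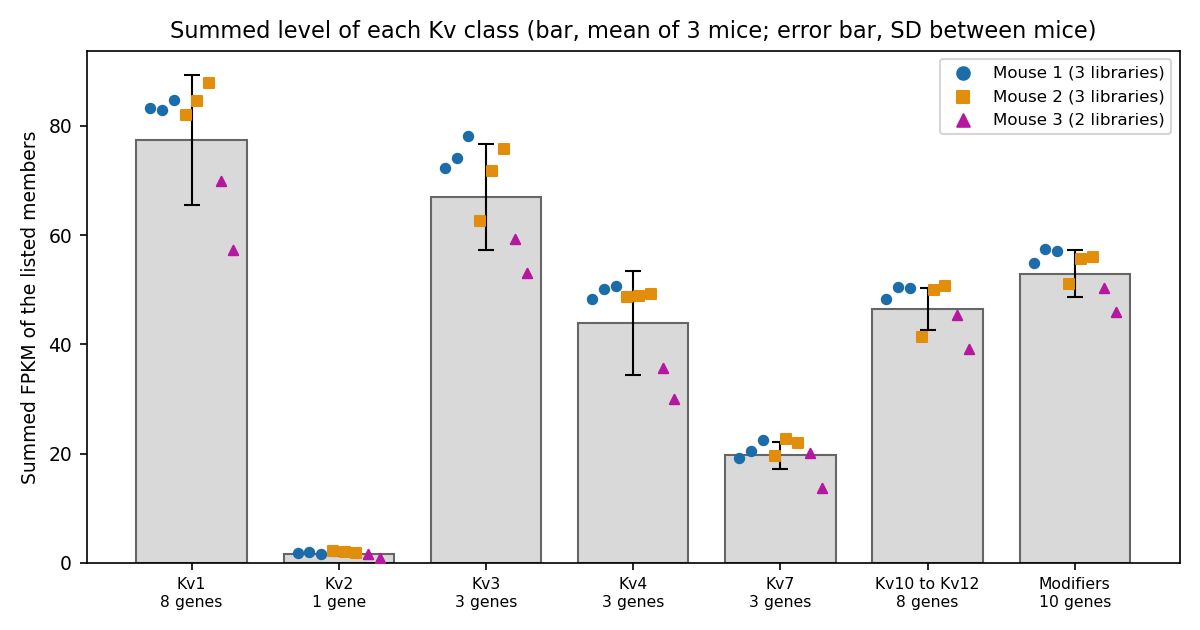
Summed FPKM of the members of each class (bars, mean of 3 mice; error bars, SD between mice; points, the 8 libraries by mouse). Kv1 and Kv3 are the tallest bars at 77.4 and 67.0 FPKM, and both mouse 3 points (triangles) lie below all the others in Kv1, Kv2, Kv3, Kv4 and the modifiers.

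The Kv1 channels, which open at low voltages and limit repetitive firing, were carried by 3 genes. Kcna2 and Kcna1, whose products sit together along axons next to the nodes of Ranvier, were at 28.0 ± 3.88 and 26.2 ± 4.90 FPKM (SD, n = 3), and Kcna6 was at 14.4 ± 1.88 FPKM. Kcna2 measured 29.3, 29.2 and 30.1 FPKM in mouse 1, 30.0, 31.1 and 31.4 FPKM in mouse 2, and 26.2 and 20.9 FPKM in mouse 3. Kcna1 measured 28.7, 29.4 and 28.7 FPKM in mouse 1, 29.6, 28.5 and 29.2 FPKM in mouse 2, and 22.1 and 18.9 FPKM in mouse 3. In both genes the 6 libraries of mice 1 and 2 lay within 3 FPKM of each other and both libraries of mouse 3 lay below them. Kcna4, the fast-inactivating member, was at 4.56 ± 0.781 FPKM, Kcna3, known for its part in lymphocytes and microglia, at 2.77 ± 0.488 FPKM, and Kcna5, best known from the atria of the heart, at 1.43 ± 0.0651 FPKM. The remaining members were close to undetected. Kcna7, known from muscle, was listed at 0 in 6 of 8 libraries and at 0.018 and 0.022 FPKM in the others. Kcna10, described in kidney and inner ear, was listed at 0.141 FPKM in library 1 of mouse 1 and at 0 in the 7 others. The deposited lower confidence bound of both genes was 0 in every library, and the width of the bounds corresponded to 1 and 3 fragments where a value was given.

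Of the Kv1 genes, 6 form a pair of clusters whose neighbours differed in level. On mm10 chromosome 3, Kcna3 (chr3:107036162-107038129), Kcna2 (chr3:107101567-107115005) and Kcna10 (chr3:107183143-107195721) lie on the plus strand, 63.4 and 68.1 kb apart. The level of Kcna2 was 10.1-fold that of Kcna3, and Kcna10 was the gene listed at 0 in 7 libraries. On chromosome 6, Kcna5 (chr6:126532551-126535555), Kcna1 (chr6:126636463-126645801) and Kcna6 (chr6:126708329-126740674) lie on the minus strand, 101 and 62.5 kb apart, with Kcna1 18.3-fold above Kcna5 and 1.81-fold above Kcna6. The coding sequence of each of these genes is held in 1 exon, as it is in 10 of the 36 members, while the Kcnh and Kcnq genes spread theirs over 11 to 16 exons. Beyond the coding sequence the annotated models differ greatly, with 10085 noncoding bases in the Kcna2 transcript, 7485 in that of Kcna1, 384 in that of Kcna3 and 293 in that of Kcna10. An FPKM value depends on that length. The promoter windows of the chromosome 3 genes, 250 bases before to 50 bases after the RefSeq start (GRCm38.p6), are shown because neighbours of this Kv1 cluster ranged from 28.0 FPKM to a gene listed at 0 in 7 libraries, with CpG dinucleotides in capitals (plus strand, 5′ to 3′).
Kcna3 (chr3:107035912-107036211): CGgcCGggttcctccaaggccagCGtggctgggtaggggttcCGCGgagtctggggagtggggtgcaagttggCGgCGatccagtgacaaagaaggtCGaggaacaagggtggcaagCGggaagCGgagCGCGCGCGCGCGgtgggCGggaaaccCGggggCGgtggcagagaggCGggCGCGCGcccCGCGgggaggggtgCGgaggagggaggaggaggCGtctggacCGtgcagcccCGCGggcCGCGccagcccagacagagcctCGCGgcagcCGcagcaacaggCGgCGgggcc
Kcna2 (chr3:107101317-107101616): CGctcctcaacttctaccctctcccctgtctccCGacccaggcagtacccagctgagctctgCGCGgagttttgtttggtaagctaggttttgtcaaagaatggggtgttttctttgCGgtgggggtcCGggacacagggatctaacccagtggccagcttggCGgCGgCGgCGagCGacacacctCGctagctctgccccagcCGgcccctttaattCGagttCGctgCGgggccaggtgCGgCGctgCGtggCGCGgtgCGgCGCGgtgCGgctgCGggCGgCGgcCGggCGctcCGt
Kcna10 (chr3:107182893-107183192): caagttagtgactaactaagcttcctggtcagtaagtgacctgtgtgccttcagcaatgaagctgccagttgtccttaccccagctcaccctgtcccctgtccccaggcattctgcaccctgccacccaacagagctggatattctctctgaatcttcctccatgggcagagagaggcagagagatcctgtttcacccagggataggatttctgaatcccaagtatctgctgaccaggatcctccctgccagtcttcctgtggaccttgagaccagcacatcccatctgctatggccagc
These windows held 37, 31 and 0 CpG dinucleotides. A window was found for 25 of the 36 members by symbol, and for 22 of them its start lay within 100 bases of the deposited one. Over those 22 the median count was 20.5 CpG (0 to 49), against 7 over 32851 windows of all genes, and 15 of 22 held at least 10, against 43.5% of all windows. The letters TATAAA, searched on both strands, occurred in 0 of the 22 windows and in 13.6% of all windows. For each member the window nearest the deposited start was taken, whereas all windows were counted without such a choice or distance limit. The sets are thus not chosen alike, and these contrasts are a description only. The windows of Kcna5 and Kcna6 held 4 and 8 CpG, and none was found for Kcna1.

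The Kv3 channels activate at high voltages and close fast, which suits neurons that fire at high rates, such as parvalbumin interneurons and Purkinje cells. Kcnc1 had the highest summed level of all members, with 40.9, 42.0 and 44.0 FPKM in mouse 1, 35.5, 41.8 and 42.8 FPKM in mouse 2, and 33.0 and 29.4 FPKM in mouse 3. It exceeded the second member, Kcnd2, in 8 of 8 libraries, although the ranges over mice overlapped. Kcnc4, which encodes an inactivating subunit, was at 16.2 ± 1.59 FPKM and Kcnc2 at 12.9 ± 2.37 FPKM (SD, n = 3). Kcnc4 had the smaller SD between mice, but its libraries ranged from 13.3 to 18.8 FPKM and those of Kcnc2 from 10.1 to 15.3 FPKM. Of the 2 Kcnc1 transcripts, the 4336-base form held 70.9 ± 1.32% of the gene's FPKM and the 7788-base form the rest, and this split stayed between 64.8% and 74.3% in all libraries. The 4336-base form alone, at 26.9 FPKM, was below Kcnd2 at 29.5 FPKM and Kcna2 at 28.0 FPKM.

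Kv4 channels carry the A-type current of dendrites and cell bodies, which delays firing and recovers fast from inactivation. Kcnd2 was by far the higher Kv4 gene, with 32.3, 34.4 and 34.0 FPKM in mouse 1, 33.4, 32.3 and 33.2 FPKM in mouse 2, and 23.8 and 19.9 FPKM in mouse 3. Kcnd3, which prevails in interneurons and Purkinje cells, measured 14.2, 13.9 and 14.4 FPKM in mouse 1, 13.6, 13.95 and 13.7 FPKM in mouse 2, and 10.1 and 8.44 FPKM in mouse 3. The ranges of mice 1 and 2 overlapped in both genes, and the mouse 3 libraries lay below all the others. Kcnd1 was low at 2.00 ± 0.269 FPKM (SD, n = 3). The 7169-base transcript held 88.6 ± 3.34% of Kcnd3. The Kv4 share of the members' FPKM was 14.8% and 14.9% in mice 1 and 2 and 12.6% in mouse 3.

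Kv7 channels generate the M current, which is closed by muscarinic receptor signalling and restrains excitability. Kcnq3 was at 10.6 ± 0.818 FPKM and Kcnq5 at 8.94 ± 1.74 FPKM (SD, n = 3). Their means were close, but they varied differently: Kcnq3 ranged from 7.13 to 12.2 FPKM within mouse 3 alone, while Kcnq5 was at 9.45 to 10.2 FPKM in the 6 libraries of mice 1 and 2 and at 7.61 and 6.26 FPKM in mouse 3. Kcnq1, the Kv7 subunit of heart and inner ear, was near the limit of detection at 0.063 to 0.277 FPKM, where the bounds corresponded to 1.33 to 10.04 fragments. Its exons overlap those of the antisense transcript Kcnq1ot1, and the strand setting of the authors' estimation is not given in the sources used here, so that reads of the pair cannot be told apart. The same holds for Kcna6, Kcnd3, Kcnq5, Kcnh7, Kcnh3 and Kcng2, each of which overlaps an exon of a gene on the opposite strand (Gm26673, Kcnd3os, Gm26580, Gca, Mcrs1 and D330025C20Rik).

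The Kcnh genes encode the ether-a-go-go (Kv10), ERG (Kv11) and ELK (Kv12) channels. In each subfamily a single gene led. Kcnh3, an ELK channel of forebrain neurons, was at 16.8 ± 0.935 FPKM (SD, n = 3), against 1.92 ± 0.623 FPKM for Kcnh4 and 0.320 ± 0.0396 FPKM for Kcnh8. Kcnh1 was at 9.50 ± 1.55 FPKM and its Kv10 partner Kcnh5 at 3.86 ± 0.319 FPKM. Kcnh2, which repolarizes the heart and is also made in neurons, was at 9.13 ± 1.13 FPKM, against 4.53 ± 0.831 FPKM for Kcnh7 and 0.425 ± 0.0873 FPKM for Kcnh6. The leading gene exceeded its partners in every library. Kv12 summed to 19.0 ± 0.887 FPKM, with a range over mice above those of Kv11 at 14.1 ± 1.69 FPKM and Kv10 at 13.4 ± 1.85 FPKM, which overlapped. The low values have little sequence behind them, 7 to 24.01 fragments for Kcnh6 and 11 to 24.96 fragments for Kcnh8 per library. Several of these models are nearly limited to the coding sequence, with 3 noncoding bases in Kcnh6, 213 in Kcnh7 and 298 in Kcnh3. Of the 2 transcripts of Kcnh1, 7158 and 7239 bases long, the longer held 54.9 ± 12.6% of its FPKM but between 35.7% and 75.7% in single libraries, so the split was not resolved.

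Among the modifiers, which act through Kv2 partners, Kcnf1 (Kv5) was highest, and 7 of the 10 had a mean above that of Kcnb2. Kcnb2 is the only Kv2 gene among the members, so the modifiers were not compared with Kv2 as a whole. Kcnf1 measured 20.03, 19.2 and 19.1 FPKM in mouse 1, 16.6, 20.3 and 19.4 FPKM in mouse 2, and 16.5 and 11.9 FPKM in mouse 3. Kcnv1 (Kv8) followed at 11.4 ± 1.46 FPKM and Kcng4 (Kv6) at 9.35 ± 0.846 FPKM (SD, n = 3). Next came Kcns2 (Kv9), at 5.53 ± 0.0779 FPKM the member with the smallest relative spread between mice, then Kcng1 at 3.38 ± 0.550, Kcns1 at 2.42 ± 0.433, Kcns3 at 1.91 ± 0.171, Kcng2 at 1.11 ± 0.118 and Kcng3 at 0.319 ± 0.0637 FPKM. Kcnv2, known from photoreceptors of the retina, was listed at 0 in 2 libraries and at 0.012 to 0.046 FPKM in the others, with bounds of 1 to 3 fragments and a lower bound of 0 throughout. The transcript split of Kcns3 changed from library to library between 0.00948% and 99.98% for the same transcript, while their sum ranged from 1.47 to 2.29 FPKM. Promoter windows of Kcng3 and Kcnf1 are shown, beside that of Kcnc1, as a pair chosen after their values were seen, in which CpG content ran opposite to level (CpG in capitals; Kcnc1 on the plus strand and the others on the minus strand, 5′ to 3′).
Kcnc1 (chr7:46396218-46396517): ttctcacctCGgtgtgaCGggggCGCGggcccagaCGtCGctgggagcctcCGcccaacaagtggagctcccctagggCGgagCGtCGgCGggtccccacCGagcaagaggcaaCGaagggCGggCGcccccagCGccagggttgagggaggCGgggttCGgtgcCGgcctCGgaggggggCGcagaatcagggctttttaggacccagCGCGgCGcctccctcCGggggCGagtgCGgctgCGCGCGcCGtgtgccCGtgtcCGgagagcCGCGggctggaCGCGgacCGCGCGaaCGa
Kcnf1 (chr12:17176839-17177138): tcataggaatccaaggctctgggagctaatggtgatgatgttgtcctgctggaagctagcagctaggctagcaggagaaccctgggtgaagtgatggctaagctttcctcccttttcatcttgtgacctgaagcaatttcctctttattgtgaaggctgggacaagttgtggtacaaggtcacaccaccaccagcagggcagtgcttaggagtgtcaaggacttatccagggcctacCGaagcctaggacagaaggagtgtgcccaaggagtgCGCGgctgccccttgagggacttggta
Kcng3 (chr17:83631846-83632145): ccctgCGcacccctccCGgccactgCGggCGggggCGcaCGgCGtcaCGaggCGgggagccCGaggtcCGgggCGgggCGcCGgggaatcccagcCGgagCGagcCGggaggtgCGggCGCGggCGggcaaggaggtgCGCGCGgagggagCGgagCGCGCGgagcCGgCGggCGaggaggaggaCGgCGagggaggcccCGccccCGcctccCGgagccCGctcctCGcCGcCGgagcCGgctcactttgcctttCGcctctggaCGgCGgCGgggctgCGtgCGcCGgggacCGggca
These windows held 41, 3 and 49 CpG, at gene levels of 37.9, 17.5 and 0.319 FPKM. Across the 22 members with a window, Spearman's rho between CpG count and level was 0.03, a description only, since the genes share libraries and base composition was not adjusted for.

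The 3 brains were then compared on the scale of log2(FPKM + 1) by the moderated F-test of limma, fitted over the 13001 genes averaging 1 FPKM or more and adjusted by the Benjamini-Hochberg method, with the libraries of a mouse as replicates. Nothing in the labels says that the libraries of a mouse are separate samples, so the p-values measure the spread between libraries and concern these 3 animals only. The 29 members above that level were tested. Of these, 10 passed at an adjusted p under 0.05 (34.5%) and all 10 were lower in mouse 3. Among all genes 25.5% passed in either direction and 11.3% passed and were lower in mouse 3. The median difference of mouse 3 from the mean of mice 1 and 2 was −0.32 on the log2 scale over the 29 members and 0.02 over all genes. In 25 of 29 members the fitted difference was below 0 (47.8% of all genes), and in 16 of 29 both libraries of mouse 3 lay below the 6 others (21.7% of all genes). Members were on average longer than other genes, with a median transcript of 4221 bases against 2845 bases and 25 of 29 above the latter, and longer transcripts as a whole were lower in mouse 3: the median difference ran from 0.56 in the shortest 10% of genes to −0.26 in the longest 10%.

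Among the genes that passed were both of the abundant Kv4 genes. The adjusted p printed beside a difference is that of the F-test over the 3 mice, not of the difference itself. Kcnd2 was 34.4% lower in mouse 3, a log2 difference of −0.59 ± 0.08 (SE; adjusted p = 0.0086), and Kcnd3 33.7% lower, −0.55 ± 0.08 (adjusted p = 0.0094). Among the Kv1 genes, Kcna1 was 29.2% lower (−0.48 ± 0.08, adjusted p = 0.0116), Kcna2 22.0% lower (−0.35 ± 0.09, adjusted p = 0.0472) and Kcna4 26.7% lower (−0.36 ± 0.08, adjusted p = 0.0301). Both of the more abundant axonal Kv1 genes thus passed, and Kcna3 (−0.34, adjusted p = 0.256) and Kcna6 (−0.32, adjusted p = 0.146) did not. In Kv3, Kcnc1 (−0.39 ± 0.09, adjusted p = 0.0376) and Kcnc2 (−0.44 ± 0.08, adjusted p = 0.0168) passed and Kcnc4 did not (−0.20, adjusted p = 0.226). Kcnq5 was 30.3% lower (−0.47 ± 0.08, adjusted p = 0.0153), while Kcnq3 did not pass (−0.21, adjusted p = 0.619). Of the Kcnh genes, Kcnh4, at the low level of 0.932 and 1.49 FPKM in mouse 3 against 1.70 to 2.55 FPKM elsewhere, was 46.7% lower (−0.57 ± 0.13, adjusted p = 0.0298), and Kcnh7 was 25.5% lower (−0.34 ± 0.08, adjusted p = 0.0214). Kcnb2, at 1.21 FPKM in mouse 3 against 1.81 and 2.00 FPKM in mice 1 and 2, had a value of −0.41 that did not pass (adjusted p = 0.0761). The pseudocount of 1 understates the differences of such low genes, which were −0.88 for Kcnh4 and −0.65 for Kcnb2 with a pseudocount of 0.1. None of the 8 modifiers tested passed, and the adjusted p of Kcnv1 was nearest to the threshold at 0.0517. Kcnh3, Kcng4, Kcns2 and Kcns3 had values above 0, from 0.02 to 0.19, that did not pass. All 4 fell below 0 on the TPM scale, where the median of all genes was itself at −0.26.

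How many members passed depended on the scaling. TPM, in which every library has the same total, gave 22 of 29 members (75.9%), all lower in mouse 3, where 42.3% of all genes passed and 36.7% passed and were lower. The median of all genes was then itself at −0.26, and that of the members at −0.64. With the trend on transcript length removed from each library, 7 of 29 members passed (24.1%), all lower in mouse 3, against 20.3% of all genes in either direction and 9.42% lower. The median over the members was then −0.20 and over all genes −0.01. Of the 10 genes, 6 passed in all of these forms, namely Kcnc1, Kcnd2, Kcnd3, Kcnq5, Kcnh7 and Kcnh4, and Kcng1 joined them once the trend was removed (−0.37, adjusted p = 0.0347). The forms rest on the same libraries, and the share of all genes that passed in every form is not given here. The overlap is therefore a description and no result about the members. The longest transcript, that of Kcna2 with 11582 bases, had a difference of −0.05 without the trend (adjusted p = 0.723), and the value of Kcna1 was then −0.22 (adjusted p = 0.0626).

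**Figure D3:**
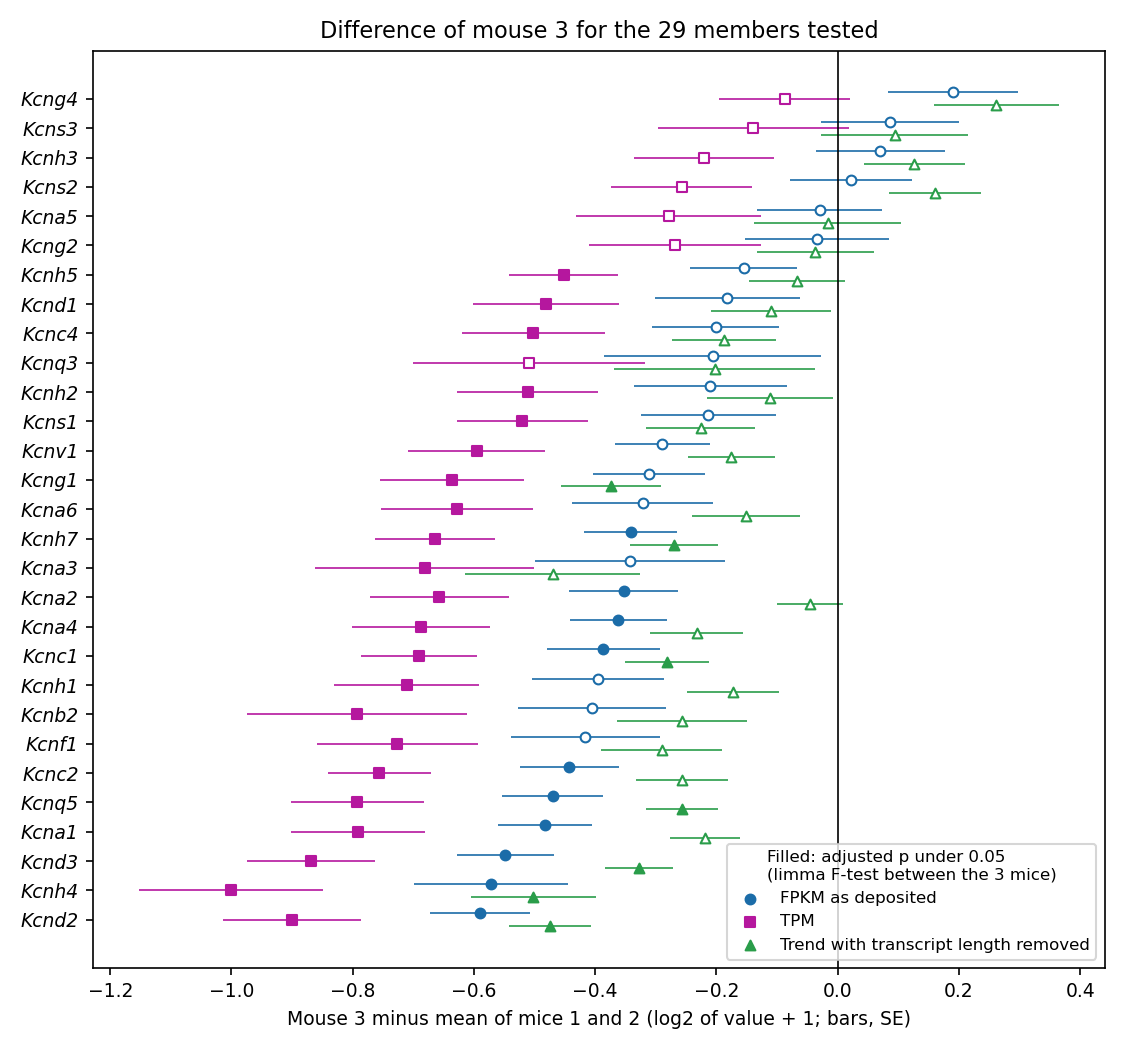
Difference of mouse 3 from the mean of mice 1 and 2 (log2 of value + 1, bars SE) for the 29 members tested, from FPKM (circles), TPM (squares) and FPKM with the length trend removed (triangles); filled symbols have an adjusted p under 0.05 in limma's F-test. Kcnd2 lies lowest with FPKM at −0.59 and is filled in all forms. The 4 genes above 0 with FPKM lie below 0 with TPM, where the median of all genes is −0.26.

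**Figure D4:**
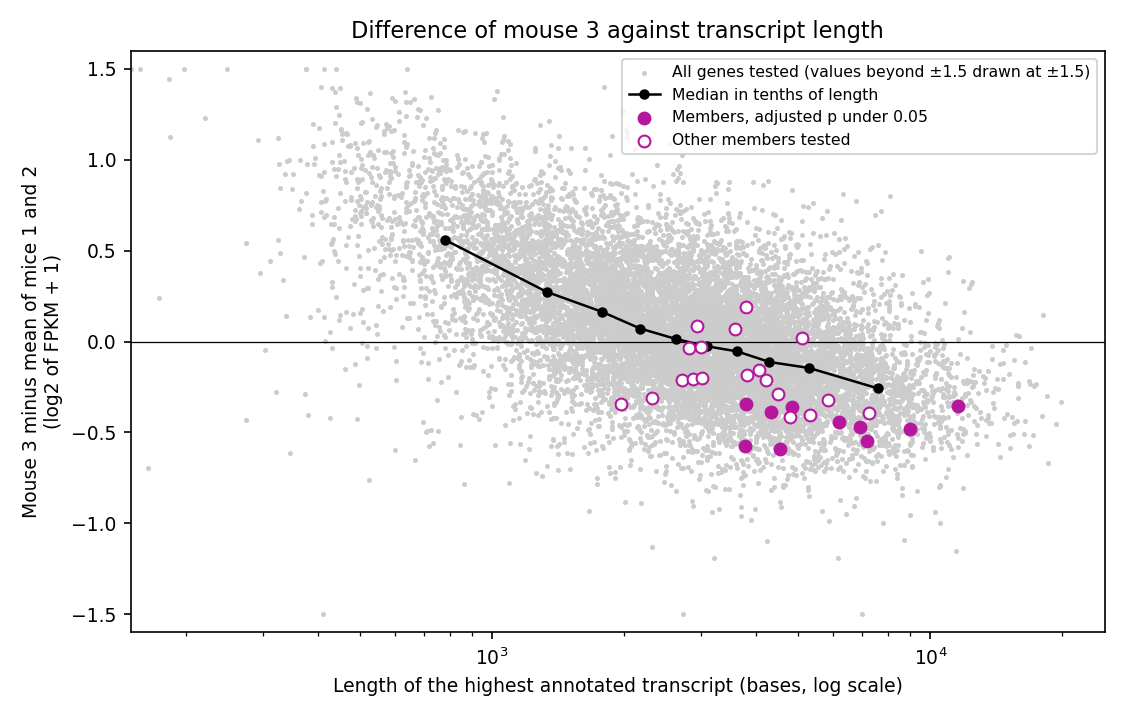
Difference of mouse 3 (log2 of FPKM + 1) against transcript length (bases, log scale) for all genes tested (grey), the median in bins of 10% of the genes by length (black line) and the 29 members (filled, adjusted p under 0.05). The black line falls from 0.56 to −0.26, and the 10 filled members lie at −0.34 or lower, at lengths of 3784 to 11582 bases.

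These counts also rested on single libraries. Without library 2 of mouse 3, which leaves that mouse with 1 library assumed to vary like those of the other mice, 0 of 29 members passed limma's test (7 at an unadjusted p under 0.05) and so did 126 of 12998 genes (0.969%). Without library 1, 2 or 3 of mouse 1, the count was 6, 6 and 5 members, beside 14.7%, 13.7% and 12.9% of all genes. Without library 1, 2 or 3 of mouse 2, it was 15, 7 and 8 members, beside 29.8%, 18.1% and 21.6% of all genes. The counts of members thus moved together with those of all genes. The difference of Kcna2 was −0.20 without library 2 of mouse 3. Kcna1, Kcnc2, Kcnd2, Kcnd3 and Kcnq5 passed in 7 of the 8 fits that left out 1 library, Kcna4, Kcnh4 and Kcnh7 in 4, and Kcna2 and Kcnc1 in 2.

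Class sums of the 3 mice were compared by an exact permutation test of the F statistic over the 280 groupings of the libraries (smallest possible p = 0.0036). The sums were put on the log2 scale without a pseudocount, unlike the values of single genes above. The p-values were adjusted over the 7 classes and their total. They belong to the comparison of all 3 mice and not to the mouse 3 differences printed beside them. None of the 7 classes had an adjusted p under 0.05, and 4 had an unadjusted p under 0.05. Mouse 3 differed from mice 1 and 2 by −0.59 (log2) in Kv4 and −0.70 in Kv2 (both exact p = 0.0143), by −0.41 in Kv1 (exact p = 0.025) and by −0.20 in the modifiers (exact p = 0.0464). Kv2 is Kcnb2 alone, which did not pass limma's test above, where its value with a pseudocount of 1 was −0.41. Kv1, Kv2 and Kv4 and the total of all members, at −0.35, all had an adjusted p of 0.05, at the threshold but not under it, and the modifiers one of 0.0667. Kv3 differed by −0.37 (exact p = 0.05, adjusted p = 0.0667). Kv7 and Kv10 to Kv12 had differences of −0.35 and −0.20, with adjusted p = 0.154 each in the exact test. These sizes rested on library 2 of mouse 3, without which the difference was −0.28 in Kv2, −0.27 in Kv1, −0.07 in Kv7, −0.09 in Kv10 to Kv12 and −0.24 in the total, while Kv4 stood at −0.47, Kv3 at −0.29 and the modifiers at −0.14. Without library 1 of mouse 3, Kv2 was at −1.12, Kv7 at −0.63 and Kv10 to Kv12 at −0.31. On the TPM scale all 7 classes passed. That scaling divides all genes of a library by the same total and so shifts every class alike. Kv10 to Kv12 and the modifiers, at −0.20 with FPKM, were then both at −0.50. The median of all genes was itself at −0.26 on log2(TPM + 1). Without the length trend 0 classes passed (adjusted p of 0.0571 or more, against unadjusted p under 0.05 in Kv1, Kv4 and the modifiers).

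Marker genes of other cell types and of brain regions also differed between the mice, and their part in the Kv values was not tested. Beside the FPKM calls given here for each list, 14.1% of all genes passed higher and 11.3% lower in mouse 3. In bulk tissue, fewer cells of a type and less RNA per cell cannot be told apart. The 6 neuronal markers summed to 1753 to 1893 FPKM in mice 1 and 2 and to 1591 and 1692 FPKM in mouse 3, and 2 of them passed lower. The 5 oligodendrocyte markers summed to 1990 to 2207 FPKM and to 3881 and 4801 FPKM, with 3 passing higher, and the 5 astrocyte markers to 417 to 453 FPKM and to 620 and 648 FPKM, with all 5 passing higher. The oligodendrocyte and astrocyte sums were thus higher in mouse 3 with FPKM. Microglial markers summed to 47.0 to 54.8 FPKM against 61.3 and 61.5 FPKM (2 of 5 passed higher) and endothelial ones to 52.9 to 77.3 FPKM against 104 and 112 FPKM (1 of 5). Of the regional lists, 3 of 5 telencephalic markers passed lower, with sums of 65.3 to 74.6 FPKM against 46.0 and 47.5 FPKM, and 1 of 5 striatal markers passed lower, with 126 to 149 FPKM against 105 and 124 FPKM. Cerebellar markers summed to 144 to 175 FPKM against 180 and 278 FPKM with 0 of 4 passing limma's test, hindbrain markers to 12.2 to 13.7 FPKM against 11.6 and 12.4 FPKM with 0 of 4 tested passing, and choroid plexus markers to 319 to 549 FPKM against 432 and 561 FPKM with 1 of 4 passing lower. The 4 markers of fast-firing neurons, which use Kv3 channels, summed to 214 to 251 FPKM against 278 and 373 FPKM, with 1 passing higher. The calls of several lists depended on the scaling. With TPM, where 5.52% of all genes passed higher and 36.7% lower, 0 of the 4 fast-firing markers passed higher and 2 passed lower, 1 of 5 astrocyte, 2 of 5 oligodendrocyte and 1 of 5 microglial markers passed higher, and 4 of 6 neuronal, 4 of 5 telencephalic, 3 of 5 striatal, 2 of 4 choroid plexus and 2 of 4 hindbrain markers passed lower. Endothelial and cerebellar counts were as with FPKM. With the length trend removed, where 10.8% of all genes passed higher and 9.42% lower, 0 fast-firing markers passed, 5 of 5 astrocyte, 3 of 5 oligodendrocyte and 1 of 5 microglial markers passed higher, 3 of 6 neuronal markers passed lower, and the other lists had the FPKM counts.

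**Figure D5:**
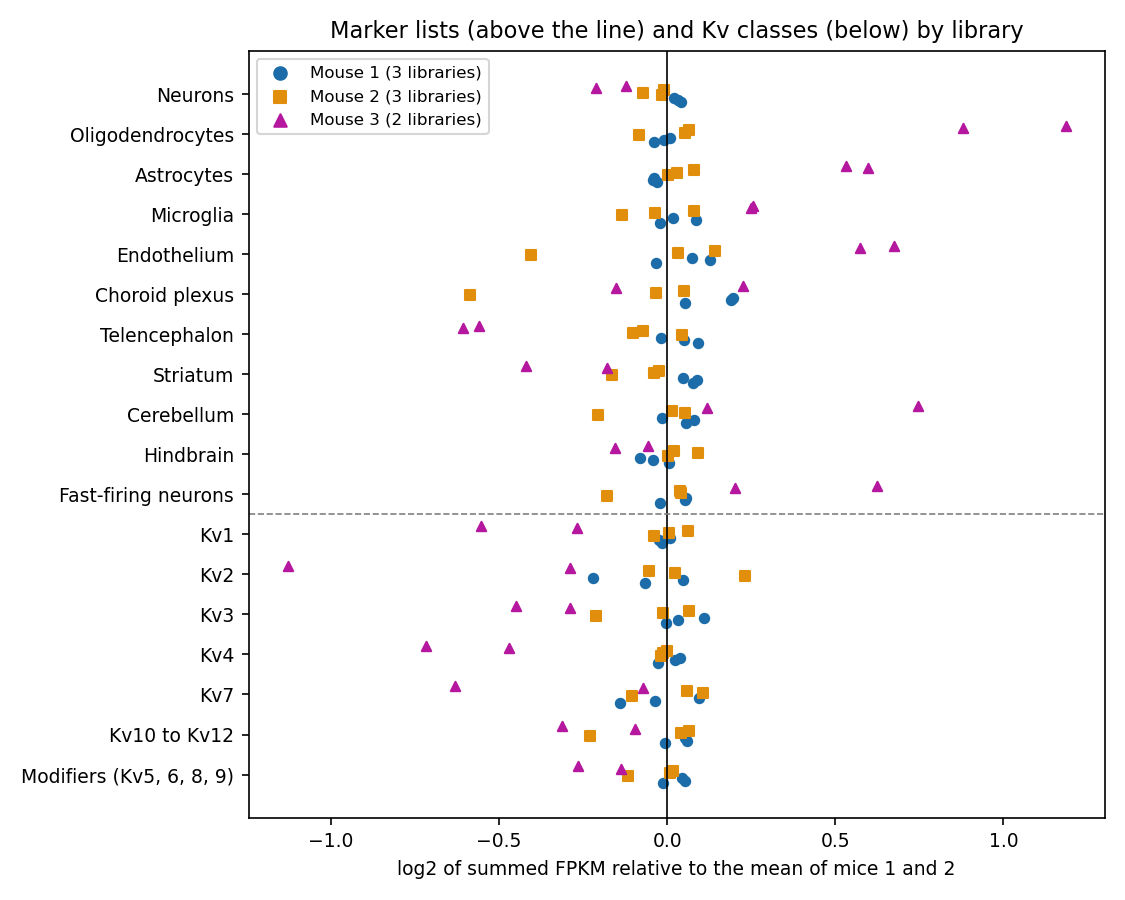
Summed FPKM of marker lists (above the dashed line) and Kv classes (below it) in each library, as log2 relative to the mean of mice 1 and 2. The mouse 3 triangles of oligodendrocytes lie at 0.88 and 1.19 and those of telencephalon at −0.61 and −0.56, and those of Kv4 lie at −0.47 and −0.72.

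The auxiliary subunits formed a list of 15 other genes, of which 12 could be tested. The Kv beta subunit genes that bind Kv1 channels were abundant, with Kcnab2 at 89.5 ± 10.4 FPKM, Kcnab1 at 38.1 ± 5.78 FPKM and Kcnab3 at 16.8 ± 2.77 FPKM (SD, n = 3). Partners of Kv4 channels were expressed as well, with Dpp6 at 63.5 ± 5.56 FPKM, Dpp10 at 41.1 ± 0.887 FPKM and Kcnip1 to Kcnip4 at 14.8 ± 1.08, 32.9 ± 2.97, 32.6 ± 1.2 and 33.9 ± 4.78 FPKM. Amigo1, a partner of Kv2 channels, was at 16.2 ± 2.11 FPKM. Compared between the mice, 2 of the 12 passed lower in mouse 3 and 1 passed higher, with a median difference of −0.13. Among all genes 25.5% passed, 11.3% lower and 14.1% higher, so that 3 of 12 is near the background and is no result about the list. Kcnab1 (−0.39 ± 0.07, adjusted p = 0.0161) and Kcnab3 (−0.40 ± 0.09, adjusted p = 0.0301) were lower, and Kcnab2 had a value of 0.28 that did not pass (adjusted p = 0.0582). Kcne1l (Kcne5) was higher, at 5.50 and 7.74 FPKM in mouse 3 against 2.91 to 3.90 FPKM elsewhere (0.85 ± 0.13, adjusted p = 0.0101). On the TPM scale 8 of the 12 passed lower and 1 higher, beside 36.7% and 5.52% of all genes, and without the length trend 3 passed lower and 2 higher, beside 9.42% and 10.8%. Of the other KCNE genes, which encode small membrane subunits, Kcne2 was at 3.34 ± 0.536 FPKM and Kcne4 at 0.660 ± 0.187 FPKM, Kcne3 was listed at 0 in 3 libraries and at up to 0.255 FPKM, and Kcne1 was listed at 0 in all 8.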

How the data were processed

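RNA was extracted from whole brains of 3 mice, samples with a high RNA integrity score were kept, and Kapa mRNA HyperPrep libraries were run on a NextSeq500, as the study's methods state. The authors deposited 1 table with an FPKM value, a status and a confidence interval for each of 34535 transcripts in each library, and a coverage signal per transcript, in Cufflinks column layout. The submitters' processing notes name TopHat, Cufflinks and the mm10 build without versions. Strand setting and read length are not given in the sources used here.

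FPKM of transcripts was summed per gene (24343 genes) and averaged per mouse and then over the mice. Coverage times length gave 1.31 to 2.02 gigabases per library. For genes of 1 transcript, the fragments behind a value were estimated from the relative width of the deposited FPKM bounds, taken as 2 over the square root of the fragments. Of 20075 values under 10 fragments, 75.4% came out within 0.02 of a whole number, so these are approximate and were used only to describe depth. FPKM are no counts and no counting interval was computed. The status was FAIL for 8 transcript values, none of a gene named here. Mice were compared with limma 3.58.1 (R 4.3.3) on log2(FPKM + 1) over the 13001 genes averaging 1 FPKM or more, with an adjusted p threshold of 0.05. On data simulated for this comparison, with 200 changed genes of each size among 13001, the fit recovered 168 of 200 log2 changes of 1 and 0 of 200 changes of 0.5. In the data 3310 of 13001 genes passed, which makes the adjusted threshold less strict than in the simulation. Members passed there at −0.34 to −0.59, so the simulated counts do not give the power of the comparison. Class sums were compared by an exact permutation test of the F statistic over the 3 mice. Alternatives were a pseudocount of 0.1, no filter, TPM computed from the FPKM values, a lowess trend on transcript length removed per library (span 0.3), the highest transcript alone, the library number as a block and leaving out each library. The members, the auxiliary and marker lists and the tests were chosen with earlier results of these data known. All members, auxiliary genes and lists are reported. Promoter windows came from RefSeq (GRCm38.p6) and exon structure from GENCODE M21. Python 3.11.15, pandas 2.3.3, scipy 1.17.1 and statsmodels 0.14.6 were used.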

Additional observations from a re-analysis of the deposited data

Results flagged for a closer look

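Of 43 values examined over the 8 libraries (the 36 members and their class sums), 3 had a library set apart from the nearest of the others by more than Dixon's 95% limit. The nominal rate of 1 in 20 groups does not apply as it stands, because class sums contain the members and Kv2 is Kcnb2 alone. Kcna10 was at 0.141 FPKM in library 1 of mouse 1 and listed at 0 in the 7 others, on about 3 fragments. With 7 values at 0, any single value above 0 is flagged, so this flag carries no information. For Kcnf1, library 2 of mouse 3 had the lowest level, 11.9 FPKM, and the next library 16.5 FPKM. Kcng4 was highest in the same library at 11.7 FPKM, with the next at 9.74 FPKM.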

How the results depend on the processing

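Of the 29 members tested, the count that differed between mice, 10, all lower in mouse 3, became 22 with TPM and ranged from 0 to 15 when 1 library was left out. The share of all genes that passed moved too, from 25.5% to 42.3% with TPM and to 29.8% in the fit without library 1 of mouse 2, which gave 15. The count of members was 9 with a pseudocount of 0.1 (beside 22.4% of all genes) and 8 without the filter on low values (beside 14.04% of 19296 genes). It was 9 with the highest transcript alone (beside 16.9%) and 7 with the length trend removed (beside 20.3%). It was 7 of 29 (24.1%), near the 23.04% of all genes, with the library number as a replicate block. The numbers are not explained in the labels, the correlation of deviations between same-numbered libraries of different mice was 0.0028 to 0.107 over 7 pairs, and 5 of 8 libraries correlated best with their own number, so the numbers were not taken to pair libraries. The count of classes that differed was 0, and 7 with TPM, which shifts all classes of a library alike. With FPKM it stayed at 0 when 1 library was left out, where fewer groupings limit the exact test. The smallest p was then 0.0095 or 0.0143. Shares of the members' FPKM moved by more than the SD between mice with the highest transcript alone, to 26.9% for Kv1, 19.5% for Kv3 and 6.73% for Kv7, since transcripts other than the highest are left out, and the Kv7 share ranged from 6.11% to 6.59% without 1 library. Differences of mouse 3 changed sign for few members, none of them past the threshold. With the highest transcript, Kcnh1 was at 0.081. With TPM, Kcnh3 was at −0.22, Kcng4 at −0.087, Kcns2 at −0.26 and Kcns3 at −0.14, beside a median of −0.26 over all genes. Leaving out 1 library, the difference ranged from −0.073 to 0.013 for Kcna5, from −0.55 to 0.14 for Kcnq3, from −0.012 to 0.15 for Kcnh3, from −0.13 to 0.059 for Kcng2 and from −0.11 to 0.15 for Kcns2. The causes were not tested. Member levels moved by more than the SD between mice for 5 genes of 2 transcripts with the highest alone, to 26.9 FPKM for Kcnc1, 5.10 for Kcnh1, 7.51 for Kcnh2, 3.37 for Kcns2 and 1.11 for Kcns3. With 1 library left out, member levels stayed within the SD between mice in 283 cases and moved further in 5. Depth limits the genes under 1 FPKM, which were not tested.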
